A study of Mus musculus with 6 samples.

Results

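Neurotrophic factors are secreted proteins that keep neurons alive and draw their axons, and 9 genes for such factors and their receptors were examined in RNA from mouse mammary tumors. The genes were listed by symbol, and the list was chosen with earlier results of these data known. The ligands were Bdnf, Ntf3, Gdnf, Artn and Mdk and the receptors Ngfr, Ntrk2, Sort1 and Ret. All 9 had a row among the 23508 genes of the deposited count table. The tumors were of 4T1, a mouse mammary carcinoma line that models the triple-negative form of breast cancer. Neural activity in the tumors has a first peak, and 3 tumors were collected ahead of it (before-peak tumors) and 3 on its day (with-peak tumors). The series title traces the activity to the sympathetic nervous system. Every tumor carried the same label of tissue, and host strain, tumor age and animal were not stated in the sources used here. Differences due to the collection day cannot be told apart from differences due to the peak.

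The neurotrophins, among them Bdnf, Ntf3 and Ntf5, are made as longer precursors. Their mature forms act through the Trk receptor kinases, while the precursors act through Ngfr (p75) together with Sort1 (sortilin). The GDNF family, which includes Gdnf and Artn, binds a Gfra co-receptor and signals through the kinase Ret. Sympathetic neurons are guided by artemin along blood vessels as they grow, and carry p75. Midkine, the product of Mdk, is a heparin-binding growth factor found in embryos and in many carcinomas. RNA from a whole tumor mixes carcinoma, stromal, immune and nerve cells, and the cell bodies of innervating neurons, with most of their mRNA, lie in ganglia outside the tumor.

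Total counts ran from 10591067 to 14549357 per tumor, so that 1 CPM (counts scaled to 1000000 per library, with TMM factors) stands for 10.3 to 14.3 counts. Markers of the labelled carcinoma were present, with 2321 to 3802 CPM summed over 6 epithelial genes such as Krt8 and Epcam in every tumor. Some libraries stood apart in their mix of cells. Before-peak replicate 3 had 289.8 CPM summed over 4 B cell genes against 1.72 to 39.2 CPM in the other tumors. With-peak replicates 2 and 3 had 1226 and 1248 CPM over 8 skeletal muscle genes against 38.7 to 215 CPM elsewhere. With-peak replicate 2 was lowest in the epithelial genes, at 2321 CPM, and highest in the sums of the fibroblast, pericyte, endothelial and macrophage lists. The share of counts from mitochondrial rRNA did not overlap between groups, at 0.0313% to 0.0456% in before-peak tumors and 0.0587% to 0.0655% in with-peak tumors.

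Of the 9 genes, 7 had enough counts to be tested and Ntf3 and Gdnf did not, and none of the 7 passed the test of with-peak against before-peak tumors. By the edgeR quasi-likelihood test with Benjamini-Hochberg adjustment over all 16755 genes tested, 0 of the 7 passed a threshold of 0.05, where 0% of all genes passed. At an unadjusted p under 0.05 there was 1 of 7, Ngfr, against 9.5% of all genes (6.12% higher and 3.38% lower with the peak). DESeq2 and limma-voom called 0 of 7, against 1.59% and 0% of all genes. Log2 fold changes are of with-peak over before-peak tumors, and 5 of the 7 were above 0, against 47.7% of all genes, with a median of 0.09 against -0.02. Ngfr was the only member of the 7 whose groups did not overlap, where 15.5% of all genes did not (8.13% higher and 7.38% lower with the peak).

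**Figure D1:**
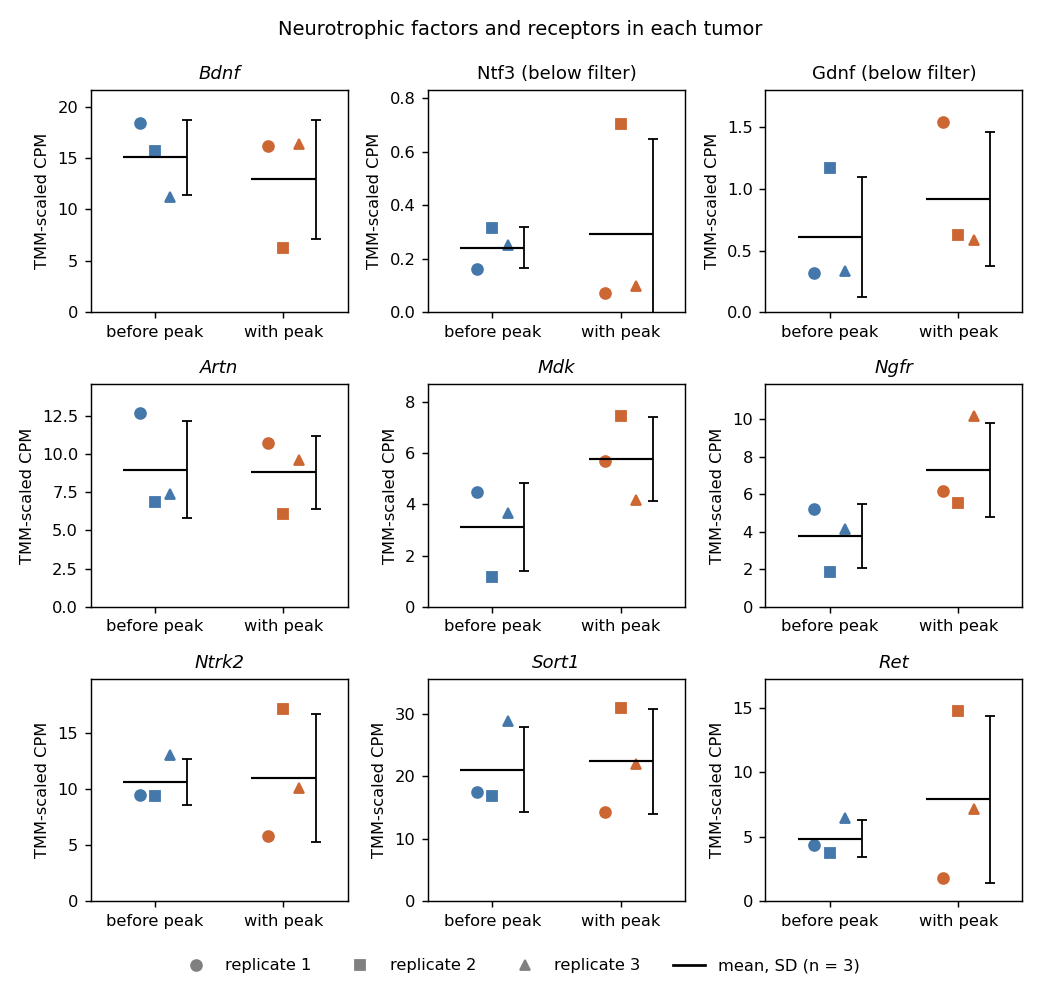
TMM-scaled CPM of the 9 genes in each tumor, with a point per tumor (shape gives the replicate), the group mean as a line and the SD over 3 tumors as a bar (ended at 0 for Ntf3). Ngfr is the only gene of the 7 tested whose with-peak tumors, from 5.56 to 10.2 CPM, all lie above the before-peak tumors, from 1.88 to 5.22 CPM.

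Ordered by level per length, in CPM per kilobase of annotated exon averaged over the 6 tumors, the ligand Artn came first at 3.70 ± 1.05 (SD, n = 6). Mdk followed at 3.35 ± 1.58, Sort1 at 2.87 ± 0.905 and Bdnf at 2.25 ± 0.72 CPM per kilobase. Ngfr, at 1.60 ± 0.793, Ret, at 0.944 ± 0.668, and Ntrk2, at 0.560 ± 0.198 CPM per kilobase, came next, and Gdnf and Ntf3 came last at 0.208 ± 0.134 and 0.155 ± 0.136. No pair of neighbors in this order was apart, since the ranges over the tumors overlapped for each. The order depends on the length used, that of all annotated exons of a gene together, 19292 bases for Ntrk2 and 2405 for Artn. In CPM without length, Ntrk2 averaged 10.8 and Artn 8.91. Over the genes of the table, Artn and Mdk stood at percentiles 56.7 and 54.9 of the level per length, so the highest members were near the middle, and Ntf3 stood at percentile 13.1.

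Bdnf, the brain-derived neurotrophic factor that activates TrkB (ENSMUSG00000048482, chromosome 2, 109674700 to 109727007), was at 18.4, 15.7 and 11.2 CPM in before-peak replicates 1, 2 and 3. In the with-peak tumors, in the same order, it was at 16.1, 6.27 and 16.4 CPM. The groups overlapped, and with-peak replicate 2 was the lowest of the 6 tumors. For Bdnf the log2 fold change was -0.22 (SE 0.37, 95% interval -1.06 to 0.61, edgeR adjusted p = 0.881). It turned to 0.11 without with-peak replicate 2.

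Bdnf is known in neurons for transcription that follows electrical activity, through CREB at a promoter inside the gene, and one of its start sites is shown for that reason. The table of mouse promoters from RefSeq (GRCm38.p6) matched 6 of the 9 genes, with 7 start sites for Bdnf. The motif TGACG, the core of a cAMP response element, was searched on both strands in the 250 bases before each start. It was found before 1 of the 7 Bdnf starts, at chr2:109692186-109692435 on the plus strand, and in 17.8% of all 32851 windows of that length. The capitals mark the match, here as the reverse complement CGTCA.
Bdnf: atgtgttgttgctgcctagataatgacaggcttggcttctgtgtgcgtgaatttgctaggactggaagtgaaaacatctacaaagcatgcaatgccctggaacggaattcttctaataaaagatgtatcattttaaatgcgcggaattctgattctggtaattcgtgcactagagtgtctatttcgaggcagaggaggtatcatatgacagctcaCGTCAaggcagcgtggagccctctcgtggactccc
The window lies 5' to the start by the annotation, and 45.6% of its bases were G or C. Counts are per gene, so they do not tell from which of the starts the Bdnf reads came.

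Artn, the artemin that guides sympathetic axons through Gfra3 and Ret (ENSMUSG00000028539, chromosome 4, 117926162 to 117929763), was at 12.7, 6.89 and 7.42 CPM in before-peak replicates 1, 2 and 3. It was at 10.7, 6.11 and 9.60 CPM in the with-peak tumors, in the same order. The groups overlapped over most of their range, and with-peak replicate 2 was again the lowest tumor. Its log2 fold change was -0.03 (SE 0.32, 95% interval -0.75 to 0.69, edgeR adjusted p = 0.986), and it turned to 0.30 without before-peak replicate 1 and to 0.17 without with-peak replicate 2.

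Midkine RNA was higher on average with the peak, without passing the test. Mdk (ENSMUSG00000027239, chromosome 2, 91929805 to 91932297) was at 4.49, 1.17 and 3.67 CPM in before-peak replicates 1, 2 and 3. It was at 5.68, 7.44 and 4.17 CPM in the with-peak tumors, in the same order. With-peak replicate 3 lay below before-peak replicate 1, so the groups overlapped, and before-peak replicate 2 was far below the rest. On the log2 scale the change was 0.89 (SE 0.47, 95% interval -0.17 to 1.95, edgeR adjusted p = 0.604), or 0.50 without before-peak replicate 2.

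Ntf3 (neurotrophin-3, the ligand of TrkC; ENSMUSG00000049107, chromosome 6, 126101412 to 126166910) had 2, 4 and 3 counts before the peak and 1, 9 and 1 counts with it, given in the order of replicates 1, 2 and 3. Gdnf (the founding ligand of its family; ENSMUSG00000022144, chromosome 15, 7810846 to 7837575) had 4, 15 and 4 counts before the peak and 22, 8 and 6 counts with it, in the same order. Both were below the filter on low counts and were not tested in the main comparison, and the groups overlapped for both.

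Among the receptors, the with-peak tumors all had more Ngfr than any before-peak tumor. Ngfr, the p75 receptor of all neurotrophins (ENSMUSG00000000120, chromosome 11, 95568818 to 95587735), was at 5.22, 1.88 and 4.17 CPM in before-peak replicates 1, 2 and 3. It was at 6.17, 5.56 and 10.2 CPM in the with-peak tumors, in the same order. The gap between the groups was small, from 5.22 to 5.56 CPM, or 65 counts in before-peak replicate 1 against 71 in with-peak replicate 2. The means were 3.75 ± 1.71 and 7.31 ± 2.51 CPM (SD, n = 3), 1.94-fold higher with the peak on the fitted scale. This log2 fold change of 0.96 (SE 0.41, 95% interval 0.02 to 1.89) had an unadjusted p of 0.0453 by edgeR, and its adjusted p of 0.519 did not pass. It stayed above 0 with any tumor left out, at the lowest 0.63 without before-peak replicate 2. In order of p-value Ngfr was at place 1453 of 16755.

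Ngfr is made by Schwann cells, pericytes and sympathetic neurons, among others, so markers of these cells were set beside it. The 8 Schwann cell genes summed to 59.7 to 90.2 CPM before the peak and 58.1 to 81.5 CPM with it, and all 8 had counts, with Cdh19 and Foxd3 at 0 in some tumors. The 6 pericyte genes summed to 142 to 202 CPM and 138 to 300.3 CPM, so that both lists overlapped between the groups. The sympathetic neuron list overlapped as well, at 5.75 to 13.7 CPM before the peak and 7.76 to 12.5 CPM with it. Its gene Phox2a, with 163 counts over all tumors, shares 95 bases with the opposite-strand gene Inppl1, with 11405 counts. Without strand marking the reads from these bases cannot be told apart. The general neuronal list, with 7 of its 8 genes in the table and 2 tested, was higher in every with-peak tumor. It summed to 4.84 to 8.62 CPM there against 2.58 to 4.33 CPM before the peak. Elavl4 was at 0 in all 3 before-peak tumors and Prph at 0 in 3 of the 6 tumors. Of the 2 tested, Tubb3 was at 1.25 to 2.01 CPM before the peak and 2.38 to 4.15 CPM with it, and Stmn2 overlapped between the groups. The sum of the 8 macrophage genes was also higher in every with-peak tumor, at 3326 to 4905 CPM against 1745 to 3040 CPM. Singly, 5 of the 8 were higher in every with-peak tumor, all but Mrc1, C1qa and C1qb, as were 8.13% of all genes tested. By edgeR 0 of the 8 passed. The sum of the 6 epithelial genes overlapped between the groups, at 3040 to 3802 CPM before the peak and 2321 to 3634 CPM with it. All 6 had negative log2 fold changes, and 0 passed by edgeR. Krt14, Krt5 and Cdh1 were lower in every with-peak tumor, as were 7.38% of all genes tested. The part of these lists and of the mitochondrial rRNA share in the Ngfr values was not tested, and a larger number of cells of a type cannot be told apart from more RNA per cell.

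The promoters of Ngfr and Artn are shown as those, among the 9 members, of the receptor whose groups did not overlap and of the ligand with the highest mean per length. The capitals mark GGGCGG (a GC box, the site of Sp1-like factors) or its reverse complement CCGCCC, searched on both strands. Artn is given as the 250 bases before its RefSeq start, chr4:117929764-117930013 on the minus strand. For Ngfr the 37 bases nearest the RefSeq start lie in the GENCODE first exon and were left off, which leaves the 213 bases of chr11:95587736-95587948, also on the minus strand.
Ngfr: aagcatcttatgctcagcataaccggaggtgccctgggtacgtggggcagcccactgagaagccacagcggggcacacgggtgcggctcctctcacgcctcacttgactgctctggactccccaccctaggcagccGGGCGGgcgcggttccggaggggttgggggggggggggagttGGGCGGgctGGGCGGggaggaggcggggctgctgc
Artn: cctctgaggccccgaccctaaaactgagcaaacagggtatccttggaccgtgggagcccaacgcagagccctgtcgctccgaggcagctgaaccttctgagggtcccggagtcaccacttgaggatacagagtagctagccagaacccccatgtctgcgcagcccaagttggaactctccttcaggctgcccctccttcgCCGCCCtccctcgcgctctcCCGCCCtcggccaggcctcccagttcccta
The Ngfr stretch held 3 matches and was 70.9% G or C, and the Artn window held 2 and was 63.6% G or C. Of all windows of 250 bases, 32.7% held a GC box. Neither stretch held TGACG.

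Sort1, the sortilin that binds precursor neurotrophins with p75 and sorts proteins to lysosomes (ENSMUSG00000068747, chromosome 3, 108284082 to 108361511), was at 17.5, 16.8 and 28.9 CPM in before-peak replicates 1, 2 and 3. It was at 14.2, 30.9 and 22.0 CPM in the with-peak tumors, in the same order. Sort1 groups overlapped, with a log2 fold change of 0.09 (SE 0.32, 95% interval -0.64 to 0.82, edgeR adjusted p = 0.951). The gene overlaps the opposite-strand gene Gm12523 over 338 bases, and without strand marking their reads cannot be told apart, though Gm12523 had 95 counts over all tumors against 1605 for Sort1.

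Ntrk2, the TrkB receptor of Bdnf and Ntf5 (ENSMUSG00000055254, chromosome 13, 58806569 to 59133970), was at 9.47, 9.40 and 13.0 CPM in before-peak replicates 1, 2 and 3. It was at 5.82, 17.1 and 10.1 CPM in the with-peak tumors, in the same order. With-peak tumors held both the lowest and the highest value, so the spread with the peak was wider than the difference between the means. For Ntrk2 the log2 fold change was 0.05 (SE 0.37, 95% interval -0.78 to 0.88, edgeR adjusted p = 0.977). Ntrk2 makes a kinase form and truncated forms, which counts per gene do not separate.

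Ret, the receptor kinase of the GDNF family (ENSMUSG00000030110, chromosome 6, 118151745 to 118197718), was at 4.33, 3.76 and 6.50 CPM in before-peak replicates 1, 2 and 3. It was at 1.82, 14.7 and 7.18 CPM in the with-peak tumors, in the same order. Its highest tumor was 8.08-fold above its lowest, and both were with-peak tumors. Ret had a log2 fold change of 0.70 (SE 0.66, 95% interval -0.86 to 2.26, edgeR adjusted p = 0.781), which was 0.23 by limma-voom and turned to -0.13 without with-peak replicate 2. In that tumor Ret had 188 counts against 26 to 78 elsewhere. The 6 sympathetic genes with a row, summed, overlapped between the groups, at 5.75 to 13.7 CPM before the peak and 7.76 to 12.5 CPM with it. Phox2a, which shares bases with Inppl1 as given above, is among the 6. Of the 4 tested, 1 had a positive and 3 a negative log2 fold change, the positive one being Chga (chromogranin A, a protein of dense-core vesicles). Chga had 2, 4 and 1 counts before the peak and 33, 54 and 19 counts with it (edgeR adjusted p = 0.0976), and was named after its values were seen. The part of these cells in the Ret values was not tested.

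**Figure D2:**
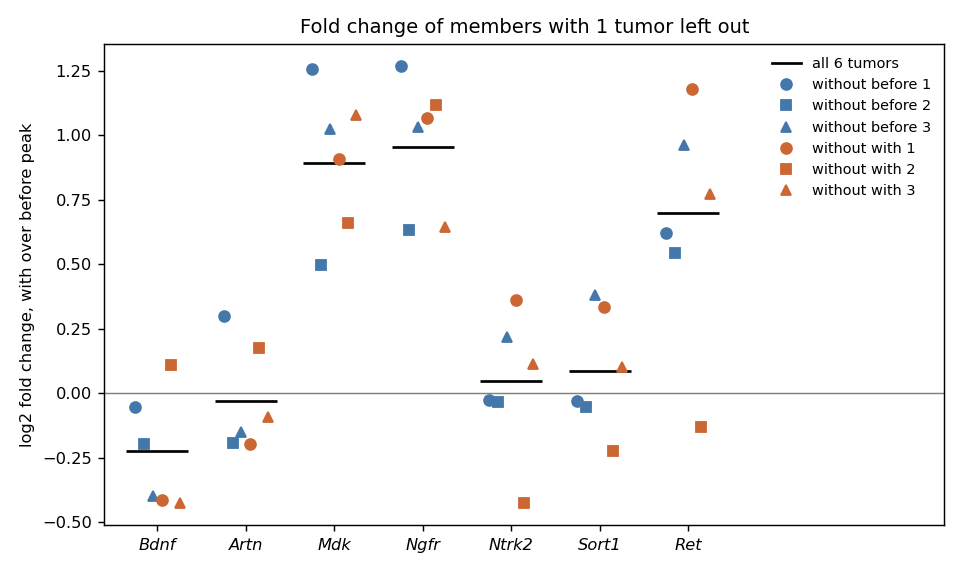
Log2 fold change of with-peak over before-peak tumors for the 7 members tested, with all 6 tumors (line) and with each tumor left out (points, color by group and shape by replicate). Ngfr and Mdk stay above 0 throughout, from 0.63 to 1.27 and from 0.50 to 1.26, while the 5 other members fall on both sides of 0.

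Of the receptors, Ntrk2, Sort1 and Ret ranked the tumors almost alike, with a with-peak tumor at each end, and Ngfr did not. Ntrk2 and Sort1 gave the 6 tumors the same order, from with-peak replicate 2 through before-peak replicate 3, with-peak replicate 3, before-peak replicates 1 and 2 to with-peak replicate 1. Ret had the same order except that with-peak replicate 3 came before before-peak replicate 3. Before-peak replicates 1 and 2 were nearly tied, at 118 and 120 counts for Ntrk2 and 218 and 215 for Sort1, so their places are not firm. For Bdnf the order was different, and its 2 lowest tumors, with-peak replicate 2 and before-peak replicate 3, were the 2 highest for Sort1 and Ntrk2. Of the marker lists, the fibroblast sum was also highest in with-peak replicate 2, at 10364 CPM, and next in before-peak replicate 3, at 6863 CPM, and so were the pericyte and endothelial sums. The lower end differed from that of Ntrk2, Sort1 and Ret. The fibroblast sum was lowest in before-peak replicate 1, and the pericyte and endothelial sums in with-peak replicate 3. The epithelial sum was lowest in with-peak replicate 2. The part of these lists in the receptor values was not tested. Without with-peak replicate 2 the log2 fold changes were -0.42 for Ntrk2 and -0.22 for Sort1, and without before-peak replicate 3 they were 0.22 and 0.38. Before-peak replicate 3 and with-peak replicate 2 thus moved the fold changes of both genes in opposite directions, and neither gene passed in these fits.

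**Figure D3:**
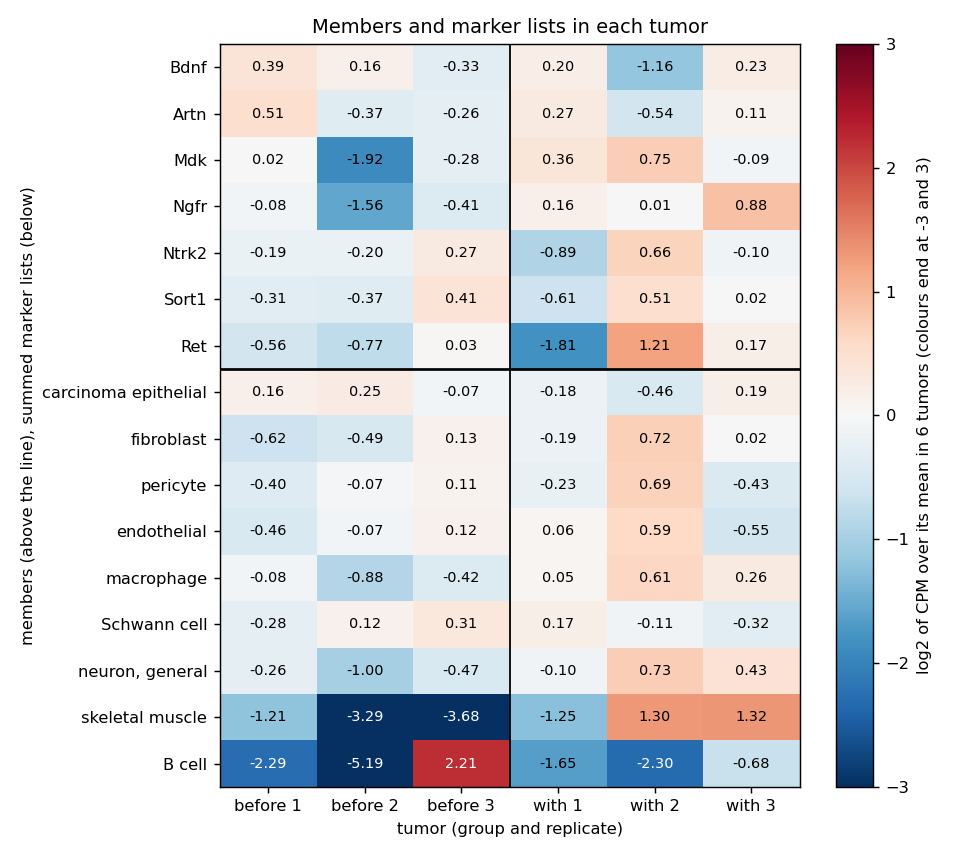
Log2 of the CPM of each tested member, and of the summed CPM of each marker list, over its mean in the 6 tumors (columns, by group and replicate). With-peak replicate 2 is high for Ret (1.21), Ntrk2 (0.66), Sort1 (0.51) and fibroblast genes (0.72) and low for Bdnf (-1.16) and epithelial genes (-0.46).

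By a fixed rule, the 3 genes whose log2 CPM followed a member most closely over the 6 tumors, among 16754 compared, were listed for the 3 members with the most CPM and for Ngfr. Such genes are high by choice, and the points share library and tissue mix. For Ntrk2 they were Aoc3, Col6a1 and Cd209d, with Pearson r from 0.983 to 0.994. Aoc3 is an amine oxidase of vessel walls and adipocytes and Col6a1 a collagen VI chain. For Sort1 they were Rtn4rl1, Aldh7a1 and Rasgrp4 (0.987 to 0.994), and for Bdnf Zfp276, Stau2 and Strn4 (0.991 to 0.998). For Ngfr they were 2210406H18Rik, Gm48746 and Psmd14 (0.983 to 0.991). Of these, 2210406H18Rik and Gm48746 rest on few counts, at 0.548 to 2.23 and 0.313 to 2.04 CPM over the tumors.

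The partners of the members were examined from 11 pathway lists with 89 genes in all, of which 86 had a row and 74 were tested, the members included. By edgeR 0 of the 74 passed over all genes, and 4 had an unadjusted p under 0.05 (Ngfr, Sdc3, Clcf1 and Plau), against 0% and 9.5% of all genes. By DESeq2 1 of the 74 passed, against 1.59% of all genes, and by limma-voom 0, against 0%. These shares were not above those of all genes. Positive log2 fold changes numbered 31 of the 74, with a median of -0.04 against -0.02 for all genes. Without the members they numbered 26 of 67, with a median of -0.08. The groups did not overlap for 4 of the 74, against 15.5% of all genes (8.13% higher and 7.38% lower). Of the 4, Ngfr and Sdc3 were higher and Plau and Itgb1 lower with the peak. Sorl1, Ncam1, Gfra1 and Shc2 each overlap an opposite-strand gene (Gm16214, Gm11149, Gm16277 and Gm47163), whose reads cannot be told apart from theirs in unstranded libraries.

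**Figure D4:**
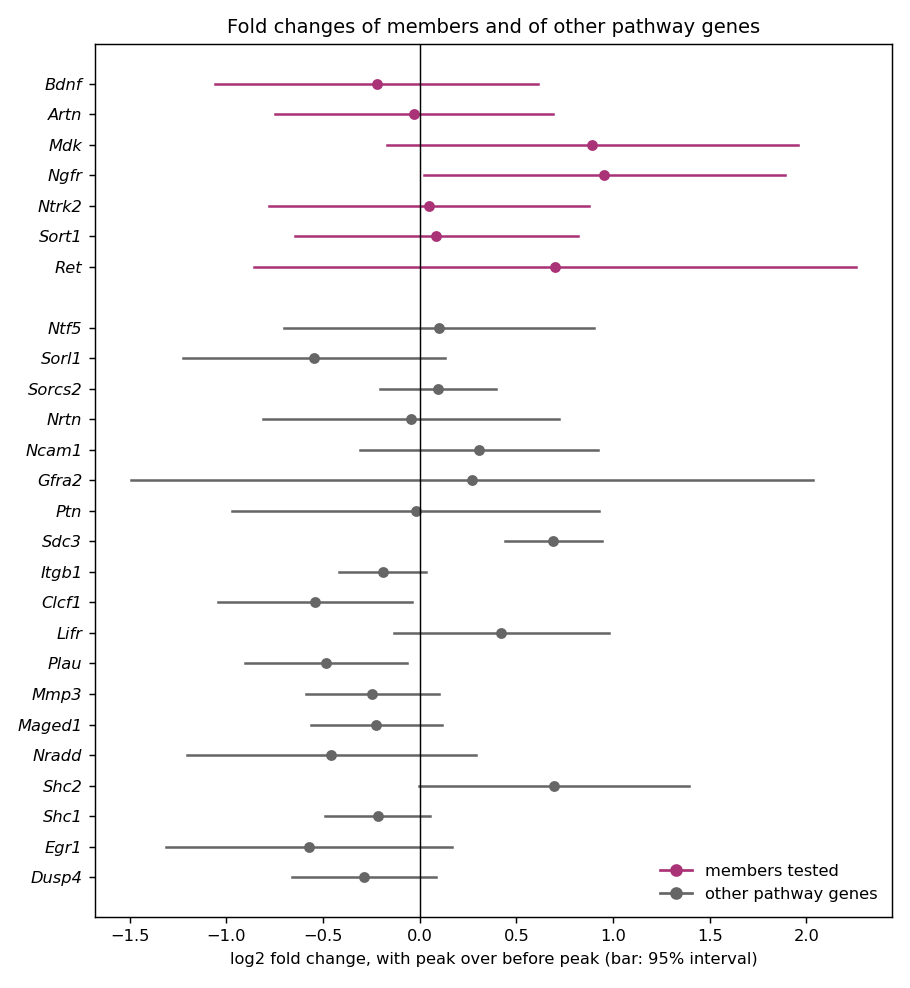
Log2 fold change of with-peak over before-peak tumors with its 95% interval for the 7 members tested and for other pathway genes named by a fixed rule. Intervals of Ngfr, Sdc3, Clcf1 and Plau do not include 0 before adjustment, and none of these genes passed after it.

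Ntf5, the neurotrophin-4 that shares TrkB with Bdnf, did not pass, at a log2 fold change of 0.10 (SE 0.36). Of the 6 neurotrophin receptor and sortilin genes tested, 4 had positive log2 fold changes. Sorl1, a sortilin relative, was at 64.8, 61.3 and 127 CPM in before-peak tumors and at 58.5, 51.3 and 64.0 CPM in with-peak tumors. Its log2 fold change was -0.54 (SE 0.29), or -0.12 without before-peak replicate 3, the tumor rich in B cell genes. The part of B cells in the Sorl1 values was not tested. Sorcs2, another co-receptor of p75, was at 36.8 ± 2.07 and 39.2 ± 4.19 CPM (SD, n = 3), a log2 fold change of 0.10.

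Ligands and their own receptors stood at unequal levels, and the genes in this paragraph were partly chosen after their values were seen. Ntrk3, the TrkC receptor of Ntf3, had 4 to 22 counts per tumor and averaged 0.028 CPM per kilobase. Artn had the highest mean of the members per length, while Gfra3, its preferred co-receptor, had 2, 0 and 1 counts before the peak and 0, 6 and 2 counts with it. A count of 0 allows up to 3 counts, or 0.21 to 0.291 CPM in these libraries. The highest co-receptor per length was Gfra2, which binds neurturin, at 3.07 ± 1.96 CPM per kilobase over the 6 tumors, next to its ligand Nrtn at 3.72 ± 0.774. Gfra2 was at 20.8 CPM in with-peak replicate 2 and 17.5 CPM in before-peak replicate 3 against 3.76 to 10.3 CPM elsewhere, the same 2 tumors that were highest for Ntrk2 and Sort1 (log2 fold change 0.27, SE 0.72). Gfra1, the co-receptor of Gdnf, was at 0.585 to 1.26 CPM per kilobase over the tumors, above the range of Gdnf itself, at 0.0874 to 0.42. The range of Ret, at 0.27 to 2.18 CPM per kilobase, overlapped that of Gdnf. Ncam1, an adhesion molecule that can receive GDNF without Ret, was measured at a log2 fold change of 0.31 (SE 0.27), against -0.04 for Nrtn.

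**Figure D5:**
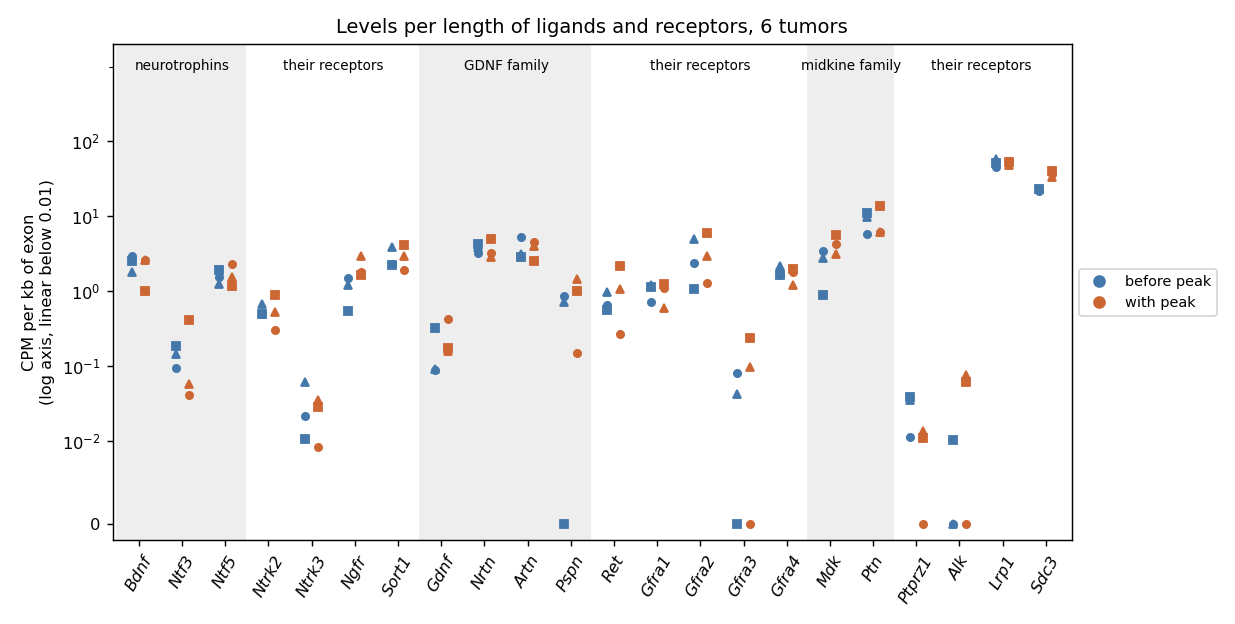
CPM per kilobase of exon in each tumor for ligands and receptors of 3 families (log axis, linear below 0.01; color by group, shape by replicate). In every tumor Gfra3, at 0.235 or less, lies below Artn, Ptprz1 and Alk lie below Mdk, and Lrp1, from 45.1 to 58.1, and Sdc3 lie above Mdk.

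The receptors of midkine were likewise far apart in level, and Ptprz1, Alk and Lrp1 were named after their values were seen. The signaling receptors Ptprz1 and Alk had 0 to 7 and 0 to 6 counts per tumor, while Lrp1, an endocytic receptor that binds many ligands besides midkine, was at 51.7 ± 4.48 CPM per kilobase and Mdk at 3.35. Ptn (pleiotrophin, the paralog of Mdk) was above Mdk per length, at 8.76 ± 3.31 CPM per kilobase and in ranges over the tumors that did not overlap (5.80 to 13.9 against 0.887 to 5.62). Ptn had a log2 fold change of -0.02 (SE 0.40). Of the 9 midkine receptor genes tested, 2 had positive and 7 negative log2 fold changes.

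Sdc3 (syndecan-3, a heparan sulfate proteoglycan that binds midkine and pleiotrophin; chromosome 4, 130792537 to 130826319) had the smallest p of the pathway genes. It was at 130.4, 137 and 140.3 CPM in before-peak replicates 1, 2 and 3 and at 221, 238 and 199 CPM in the with-peak tumors, in the same order. The groups were well apart. For Sdc3 the log2 fold change was 0.69 (SE 0.11, edgeR adjusted p = 0.0976), which did not pass, while DESeq2 gave an adjusted p of 9.41e-05 and limma-voom one of 0.141. Leaving out each tumor in turn gave 0.63 to 0.76. Sdc3 overlaps the opposite-strand gene Gm26716 over 415 bases, with 13309 counts for Sdc3 and 2345 for Gm26716 over all tumors. The summed level of the macrophage genes was higher in the same 3 tumors, as given above, and their part in the Sdc3 values was not tested. Itgb1, an integrin subunit of the midkine receptor complex, averaged 1176 ± 49.1 CPM in before-peak and 1031 ± 49.3 CPM in with-peak tumors. By edgeR its log2 fold change was -0.19, with an SE of 0.10 and an adjusted p of 0.601, and it was lower in every with-peak tumor.

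Of the 9 tested genes that cleave precursor neurotrophins or control that cleavage, 0 passed. Plau, the urokinase that makes plasmin from plasminogen, was at 234, 364 and 228 CPM in before-peak tumors. In with-peak tumors Plau was at 184, 217 and 190 CPM, so each with-peak tumor was lower. Its log2 fold change was -0.48, with an SE of 0.18 and an edgeR adjusted p of 0.472. Mmp3, a matrix protease, had a log2 fold change of -0.25. Among the neurotrophic cytokines, Clcf1, a ligand of the CNTF receptor, was at 43.7, 60.8 and 45.2 CPM in before-peak tumors and at 45.9, 27.6 and 29.2 CPM in with-peak tumors. The groups overlapped, and edgeR gave a log2 fold change of -0.54 with an SE of 0.22 and an adjusted p of 0.501. Lifr, the LIF receptor, had a log2 fold change of 0.42 (SE 0.25).

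Downstream of the receptors, 11 adaptor genes were tested and 0 passed. Shc2, a neuronal relative of the adaptor Shc1, averaged 6.85 ± 1.38 CPM in before-peak and 11.1 ± 3.76 CPM in with-peak tumors. By edgeR its log2 fold change was 0.70, with an SE of 0.31 and an adjusted p of 0.525. Shc1 averaged 168 ± 19.6 and 145 ± 9.31 CPM, a log2 fold change of -0.22. The p75 partners Maged1 and Nradd had log2 fold changes of -0.22 and -0.46. Of 11 tested targets that answer to ERK signaling or neuronal activity, 2 had positive and 9 negative log2 fold changes, with a median of -0.21, and 0 passed. Egr1, an immediate early gene induced by growth factors, averaged 51.3 ± 17.2 CPM in before-peak and 34.5 ± 11.0 CPM in with-peak tumors. By edgeR that was a log2 fold change of -0.57 with an SE of 0.31 and an adjusted p of 0.632. Dusp4, an ERK phosphatase, had a log2 fold change of -0.29 (SE 0.17).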

How the data were processed

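Oligo(dT)-selected RNA, isolated with Trizol from 6 snap-frozen tumors, was sequenced in pairs without strand marking, per the labels' protocols. The submitters' processing notes name FastQC, STAR and mm10, without versions; read counter and annotation were not given in the sources used here. The authors deposited whole-number counts per gene, with no normalization. Of 23508 genes, 23479 matched GENCODE M21 (GRCm38), which gave symbols, coordinates and exon lengths.

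The counts were fitted with edgeR 4.0.16 in R 4.3.3 (TMM scaling, filterByExpr with a minimum count of 10 and total of 15, robust quasi-likelihood test, two-sided, Benjamini-Hochberg over all 16755 genes tested, threshold 0.05), with no covariate. An SE is the size of the log2 fold change divided by the square root of F. Members' rows were read from that fit. The fit was also run on simulated counts without the tumors' shared differences in cell mix, and that outcome is not reported here. Promoter windows are from RefSeq (GRCm38.p6). Alternatives were RLE, upper quartile and library size scaling, no filter, DESeq2 1.42.0, limma-voom (limma 3.58.1), a threshold of 0.1, a replicate block and leaving out each tumor. No tumor duplicated another of its group (chi-square over degrees of freedom from 17.1 to 28.9). The labels do not say whether tumors came from separate animals, and p-values cover only the spread among these 6, which may be technical. The members, pathway lists and markers were chosen with earlier results of these data known. Named pathway genes are those past the threshold (0) and, per list, up to 2 with the smallest p-values, besides the members and partners named as chosen after their values were seen. No marker list had a gene that passed. Besides those given in the report, the endothelial list summed to 213 to 319 CPM before the peak and 200.4 to 442 CPM with it, the sensory neuron list to 9.07 to 16.2 and 8.30 to 14.2 CPM, the T cell list to 7.30 to 98.2 and 19.4 to 32.4 CPM, and the lymphoid follicle list to 1.17 to 104 and 9.71 to 17.2 CPM. Most of the sensory neuron sum was P2rx3, at 6.35 to 12.5 CPM over the tumors. P2rx3 shares 51 bases with the opposite-strand gene Ssrp1, with 713 counts for P2rx3 and 12190 for Ssrp1 over all tumors. Reads from these bases cannot be told apart. Some genes of the pathway and marker lists are counted in the sums and totals and not reported singly here.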

Additional observations from a re-analysis of the deposited data

How the results depend on the processing

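Under all 14 alternatives 0 members were called. For all genes the count was 0 with RLE, library size and upper quartile scaling and limma-voom, 35 with an adjusted p under 0.1, 29 without a filter on low counts, 266 with DESeq2 and 1 with the replicate block. Leaving out 1 tumor gave 0 to 17 genes, namely 17 when before-peak replicate 2 was dropped, 13 for before-peak replicate 3, 9 for with-peak replicate 1 and 0 for each of the others. Of the pathway genes 1, Sdc3, was called with an adjusted p under 0.1, without a filter (adjusted p = 0.0468) and with DESeq2. The cause of these differences was not tested.

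Ngfr and Mdk kept a positive log2 fold change under all 13 fits, from 0.63 to 1.27 and from 0.50 to 1.26, with adjusted p from 0.427 to 0.776 and from 0.501 to 0.891. Ntrk2 turned to -0.0099 with library size alone, -0.089 with limma-voom and -0.063 with the replicate block. With 1 tumor left out, log2 fold changes ran from -0.43 to 0.11 for Bdnf, -0.19 to 0.30 for Artn, -0.42 to 0.36 for Ntrk2, -0.22 to 0.38 for Sort1, -0.13 to 1.18 for Ret, -0.22 to 0.31 for Ntf5, -0.32 to 0.11 for Nrtn, -0.43 to 0.98 for Gfra2 and -0.54 to 0.19 for Ptn. Same-numbered tumors deviated from their group means with correlations of -0.06, -0.10 and 0.03. With 3 tumors per group that differ in their mix of cells, these values cannot tell whether the numbers pair the tumors. The replicate block changed no call of a member. Library size alone shifted the median of all genes by -0.058 and split the genes at an unadjusted p under 0.05 into 768 higher and 1020 lower, against 1025 and 567 with TMM. Depth limits Ntf3, Gdnf and the rare receptors, which rest on few counts.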
